A study of Mus musculus with 2 samples.

Results

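The platelet-derived growth factor (PDGF) system was examined in the spinal cord of newborn mice. Its members were chosen by gene symbol: the 4 ligand genes Pdgfa, Pdgfb, Pdgfc and Pdgfd and the 2 receptor genes Pdgfra and Pdgfrb, which are 6 of the 32285 genes listed. Single cells had been captured from whole spinal cord of FVB mice at postnatal day 4, in 1 library labelled SMA (spinal muscular atrophy, genotype mSmn-/-, hSMN22tg/0) and 1 labelled Con (genotype mSmn+/-, hSMN22tg/0). Both groups carry the human SMN2 transgene, and the Con mice still lack 1 of their mouse Smn alleles, so the reference is a heterozygote and not a wild type. Per the study's methods, littermates of a genotype were pooled before capture, so each group is 1 library without replicates and no difference between genotypes could be tested. All intervals below are 95% intervals that cover counting error alone.

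PDGFs are secreted dimers that bind receptor tyrosine kinases on neighbouring cells. PDGF-A binds PDGFRα, PDGF-B binds both receptors, PDGF-C acts mainly through PDGFRα and PDGF-D mainly through PDGFRβ, and the last pair must be cut by a protease before they can bind. In the developing cord, PDGF-A drives the division and survival of oligodendrocyte precursor cells (OPCs), which carry PDGFRα, while PDGF-B from endothelium recruits pericytes, which carry PDGFRβ.

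The 2 libraries held 26921 (SMA) and 25419 (Con) barcodes with 85872075 and 97894084 unique molecular identifiers (UMIs, each tagging 1 captured RNA molecule). Of barcodes with at least 5000 UMIs, 99.0% of those labelled Con were also listed in the SMA library, against 2.78% in the opposite direction, and the SMA copies were left out. After quality limits, 6787 and 8917 cells remained, with medians of 6109 and 6229 UMIs. Smn1, the targeted gene, stood at 51.7 and 50.5 CPM (a gene's UMIs scaled to a fixed sum over all genes) outside erythroid-like cells. A 3′ tag reads only the end of a transcript, so it checks the genotype only where the deletion removes that end, and SMA and Con name the libraries as labelled throughout. Xist was at 1.76 and 612 CPM and Y-linked genes (Ddx3y, Eif2s3y, Kdm5d and Uty) together at 167 and 73.8 CPM, so the sexes were not pooled alike, and sex and genotype cannot be told apart in any comparison below. In every pair of values the SMA library comes first. Of 14 classes named from marker genes, 11 had at least 50 cells in each library and were compared. The members took no part in the clustering or naming.

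Upstream sequences are shown for Pdgfra and Pdgfa, since these 2 genes took opposite levels along the oligodendrocyte lineage. Each is the 250 bases before a RefSeq transcription start (GRCm38.p6), read 5′ to 3′ on the gene's own strand. Capitals mark an E-box (CANNTG), a TATA box (TATAAA) or a GC box (GGGCGG), searched on both strands, and none of the marked motifs overlap each other.
Pdgfra, chr5:75152001-75152250, plus strand: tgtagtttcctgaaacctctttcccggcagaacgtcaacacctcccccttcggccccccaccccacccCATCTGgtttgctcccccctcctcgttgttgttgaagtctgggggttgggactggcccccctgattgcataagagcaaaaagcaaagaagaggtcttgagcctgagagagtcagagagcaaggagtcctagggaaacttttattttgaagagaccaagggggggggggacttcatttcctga
Pdgfa, upstream of the pair, chr5:138994945-138995194, minus strand: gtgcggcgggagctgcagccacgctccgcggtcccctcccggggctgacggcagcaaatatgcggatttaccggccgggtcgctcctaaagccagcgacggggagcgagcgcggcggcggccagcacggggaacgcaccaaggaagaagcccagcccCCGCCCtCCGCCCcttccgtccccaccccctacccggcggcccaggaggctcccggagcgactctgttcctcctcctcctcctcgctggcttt
Pdgfa, downstream of the pair, chr5:138994282-138994531, minus strand: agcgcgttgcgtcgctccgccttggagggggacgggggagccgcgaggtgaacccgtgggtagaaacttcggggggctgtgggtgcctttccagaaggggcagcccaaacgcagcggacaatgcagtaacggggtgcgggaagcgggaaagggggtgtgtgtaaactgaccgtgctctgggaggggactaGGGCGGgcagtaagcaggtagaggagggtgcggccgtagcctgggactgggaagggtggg
The Pdgfra window held 1 E-box and no GC box, at 54.4% G and C. Both Pdgfa windows lie inside the GENCODE gene, whose 5′ end is further upstream, at 138997370. They held 2 and 1 GC boxes and no E-box, at 72.4% and 66.4%. Over 32851 upstream windows of the same length, 66.2% held an E-box, 32.7% a GC box and 12.4% a TATA box, and the median G and C content was 52.4%. Libraries made from the 3′ end of transcripts do not show which start was used.

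Each member had its own map over the cell classes. Pdgfra was highest in OPC-like cells and next in fibroblast-like cells, and Pdgfrb was highest in mural-like cells (pericytes and smooth muscle). Among the ligands, Pdgfa was spread over mural-, Schwann- and oligodendrocyte lineage cells, Pdgfb was held by endothelial- and microglia-like cells, Pdgfc was highest in Schwann-like cells, and Pdgfd was shared by astrocyte- and endothelial-like cells. None of the 6 members was 2-fold apart between libraries in the class where it was highest.

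**Figure D1:**
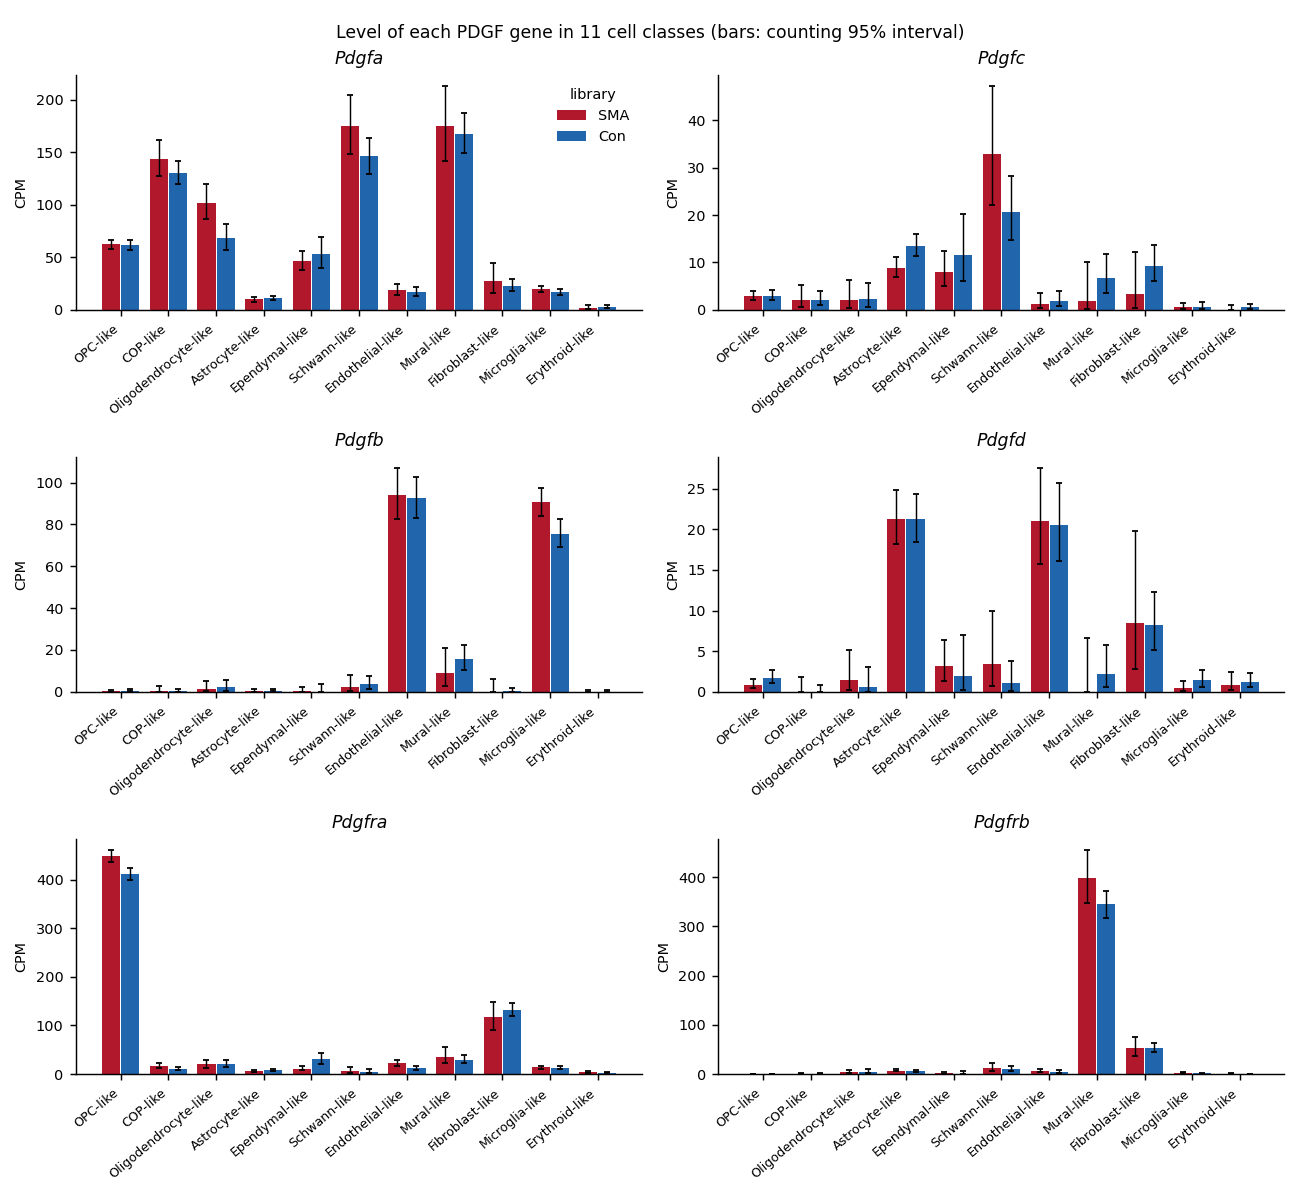
Level of each member in 11 cell classes, in CPM of all UMIs of the class, for the SMA (red) and Con (blue) libraries, with exact Poisson intervals as error bars; each panel has its own CPM axis. Pdgfra reaches 449 and 411 CPM in OPC-like cells and Pdgfrb 399 and 344 CPM in mural-like cells, while Pdgfb is above 20 CPM in endothelial- and microglia-like cells alone.

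Pdgfa (chromosome 5, 138976014 to 138997370, minus strand, GRCm38, GENCODE M21), the gene of the ligand for PDGFRα, was at 175 and 168 CPM in mural-like cells, on counts of 97 and 301 UMIs. Schwann-like cells had 175 and 146 CPM and COP-like cells (committed oligodendrocyte precursors) 144 and 131 CPM. These 3 classes did not differ beyond the spread of the libraries and their intervals, and COP-like cells lay above the next class, oligodendrocyte-like cells, at 102 and 68.5 CPM. OPC-like cells, the main carriers of its receptor, had 62.3 and 61.3 CPM of the ligand. Ependymal-like cells followed at 46.2 and 52.9 CPM, and astrocyte-like cells had 9.80 and 10.8 CPM. Erythroid-like cells, which should lack the gene, had 1.92 and 2.64 CPM, and 1.79% and 2.34% of them held a UMI at median depths of 9617 and 9653 UMIs. In mural-like cells 44.6% and 45.6% of cells held a Pdgfa UMI, or 15.2% and 15.3% once each cell was thinned to 1000 UMIs.

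The highest Pdgfa level of all stood in a cluster that took no class name. Its leading genes were Cdk18, Ddc and Enpp6, and 9 of 10 COP markers and 6 of 11 oligodendrocyte markers were at least 2-fold above the other cells, Enpp6 being a known marker of oligodendrocytes that have just begun to form. Its 68 and 232 cells had 461 and 331 CPM of Pdgfa, with a UMI in 95.6% and 92.2% of cells. That is 7.40 and 5.40 times the level in OPC-like cells. Over OPC-like, COP-like and these Enpp6 cluster cells, Pdgfa was higher at each step in both libraries, and it was lower again in oligodendrocyte-like cells. Pdgfra took the opposite course: from 449 and 411 CPM in OPC-like cells to 16.7 and 10.96 CPM in COP-like cells (27.0 and 37.5 times lower) and 3.79 and 7.68 CPM in the Enpp6 cluster, where 3 and 20 UMIs were counted. In COP-like cells 6.32% and 5.88% held a Pdgfra UMI, against 85.0% and 80.3% of OPC-like cells and 2.56% and 1.81% of erythroid-like cells.

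**Figure D2:**
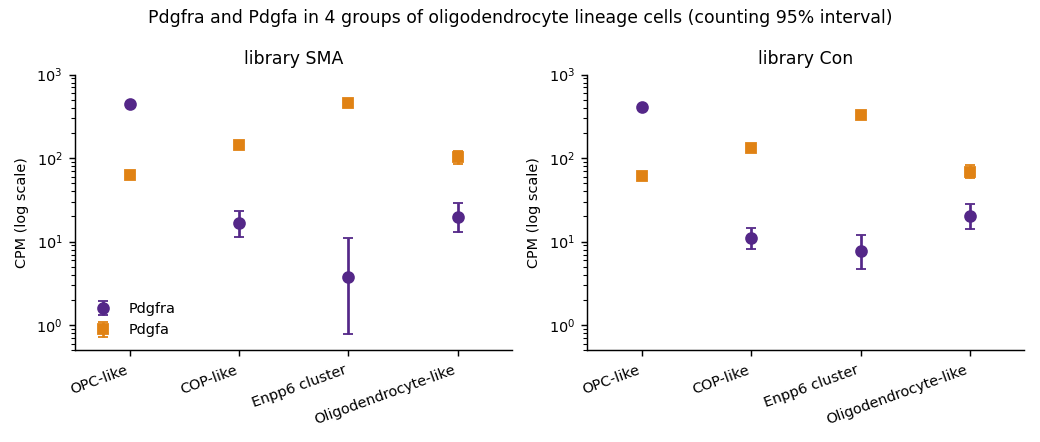
Pdgfra (circles) and Pdgfa (squares) in OPC-like cells, COP-like cells, the unnamed Enpp6 cluster and oligodendrocyte-like cells of each library, in CPM on a log axis, with exact Poisson intervals. In both libraries Pdgfra is above Pdgfa in OPC-like cells and below it in the other 3 groups, and Pdgfa is highest in the Enpp6 cluster at 461 and 331 CPM.

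Between libraries Pdgfa was close in mural-, Schwann-, COP- and OPC-like cells, but not in the Enpp6 cluster, where it was highest. The log2 ratio of SMA to Con was 0.06 (-0.28 to 0.40) in mural-like cells, 0.26 (-0.03 to 0.55) in Schwann-like cells, 0.14 (-0.07 to 0.35) in COP-like cells and 0.02 (-0.13 to 0.17) in OPC-like cells. In the Enpp6 cluster it was 0.48 (0.30 to 0.65). In oligodendrocyte-like cells it was 0.57 (0.22 to 0.93), but this class joined a shallow and a deep cluster in unequal parts. The deep cluster gave 59 of 234 SMA cells and 42 of 519 Con cells, and within the clusters the ratio was -0.05 (-0.75 to 0.62) and 0.28 (-0.18 to 0.75). With the shared SMA barcodes kept the ratio of the class was -0.06. Haemoglobin genes stood at 28576 and 166398 CPM in this class, and with haemoglobin and mitochondrial UMIs left out of the totals the ratio was 0.33 (-0.03 to 0.69).

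Pdgfb (chromosome 15, 79995874 to 80014977, minus strand), the gene of the ligand that draws pericytes to new vessels, was held by an endothelial and a microglial source. Endothelial-like cells had 94.1 and 92.5 CPM (233 and 339 UMIs), a log2 ratio of 0.03 (-0.22 to 0.27). Microglia-like cells had 90.5 and 75.5 CPM (707 and 487 UMIs), a ratio of 0.26 (0.09 to 0.43). The levels of both classes overlapped, and both lay above mural-like cells, the third class in order, at 9.02 and 15.6 CPM. No other compared class exceeded 3.62 CPM, and erythroid-like cells held 0 and 1 UMIs. Microglia-like cells were the more numerous, so 72.7% and 53.7% of all Pdgfb UMIs came from them and 23.9% and 37.4% from endothelial-like cells. Within the microglia-like class the main cluster, of 842 and 737 cells, had 97.8 and 80.6 CPM, a ratio of 0.28 (0.09 to 0.47). A smaller cluster led by Inka1, Smim3 and Spp1 had 60.05 and 39.3 CPM, a ratio of 0.61 (-0.01 to 1.26).

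Pdgfc (chromosome 3, 81036416 to 81214040, plus strand) was a low-level gene with 196 and 312 UMIs in all kept cells. Schwann-like cells had 32.9 and 20.7 CPM on 29 and 40 UMIs, and a UMI was found in 28.6% and 14.7% of them, or 7.69% and 1.90% after thinning. Haemoglobin genes stood at 410 and 21445 CPM in this class. The log2 ratio of Pdgfc there was 0.67 (-0.07 to 1.40), or 0.62 (-0.13 to 1.34) with haemoglobin and mitochondrial UMIs left out of the totals, and the 5 highest cells gave 27.6% and 32.5% of the counts. Astrocyte-like cells had 8.77 and 13.4 CPM, a ratio of -0.61 (-1.06 to -0.18), and the level was lower in the SMA library in all 3 astrocyte-like clusters (9.16 against 12.1, 9.40 against 16.4, and 6.16 against 12.5 CPM). Haemoglobin genes stood at 1460 and 8973 CPM in astrocyte-like cells, and with haemoglobin and mitochondrial UMIs left out of the totals the ratio was -0.63 (-1.07 to -0.20). No neighbouring classes in the order of Pdgfc levels differed beyond their spread.

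Pdgfd (chromosome 9, 6168584 to 6378850, plus strand), the ligand gene for PDGFRβ that needs a protease cut, was at 21.3 and 21.2 CPM in astrocyte-like cells (165 and 212 UMIs) and 21 and 20.5 CPM in endothelial-like cells (52 and 75 UMIs). The log2 ratios were 0.00 (-0.30 to 0.30) and 0.04 (-0.50 to 0.57). Astrocyte-like cells held 64.5% and 58.6% of its UMIs. Within them the Gfap cluster had the highest level, at 30.0 and 25.3 CPM. COP-like cells had 0 UMIs in both libraries, where 3 counts a library would be 1.51 and 0.685 CPM and the upper limits of the Poisson intervals are 1.86 and 0.842 CPM. Fibroblast-like cells followed astrocyte- and endothelial-like cells at 8.49 and 8.21 CPM, and no neighbours in the order differed beyond their spread. Of the Con fibroblast-like cells, 432 formed a cluster without SMA cells, at 14.0 CPM. The fibroblast-like cluster that both libraries held had 8.49 and 2.77 CPM, on 5 and 4 UMIs.

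Pdgfra (chromosome 5, 75152292 to 75198215, plus strand), the receptor gene by which OPCs are commonly recognised, had 5544 and 4584 UMIs in OPC-like cells, at 449 and 411 CPM. The log2 ratio was 0.13 (0.07 to 0.18). OPC-like cells gave 91.8% and 84.5% of all Pdgfra UMIs. Their 7 clusters ran from 248 and 193 CPM in a cluster led by Dll1 and Ppp1r14b to 545 and 488 CPM in one led by Ung, Cdc6 and Dtl. The ratio was above 0 in 5 of these 7 clusters and ranged from -0.18 to 0.36. Of the intervals, 3 lay above 0 and 1 below. OPC-like cells with at least 3 UMIs of 15 cell cycle genes among 1000 drawn had 420 (396 to 445) and 431 (404 to 459) CPM. The others had 457 (444 to 471) and 406 (393 to 420) CPM, so the intervals of cycling and other cells overlapped in each library.

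Fibroblast-like cells had 117 and 132 CPM of Pdgfra (69 and 370 UMIs), and lay below OPC-like cells and above mural-like cells beyond the spread. Their ratio was -0.17 (-0.57 to 0.20), with no stable direction: it was 0.26 with each cell weighted equally, 0.07 at a mitochondrial limit of 20% and 0.04 without cells holding 2 or more OPC markers. This class rests on 67 SMA and 603 Con cells, and 432 of the latter formed a cluster (led by Mfap5, Timp1 and Serpinb2) with no SMA cell. In that cluster 70 cells reached 5000 UMIs, and the SMA library listed the barcodes of 2 of them, whereas it listed 4990 of 4993 among the remaining deep Con cells that were not erythroid-like. Mitochondrial genes took a median 2.09% of its UMIs, and 6.30% in the rest of the Con fibroblast-like cells. Haemoglobin genes stood at 1191 and 19653 CPM in the class. The part of these differences in the result was not tested. In the cluster that both libraries held (led by Slc6a13, Mfap4 and Igf2), Pdgfra was at 117 and 161 CPM, a ratio of -0.46 (-0.87 to -0.06), and the Con-only cluster had 102 CPM. Both receptor genes were found together in fibroblast-like cells: 15 of 67 and 61 of 603 cells held a UMI of each, or 22.4% and 10.1%. Independent detection of each gene would give 15.3% and 7.02%. These shares are not thinned, and the median depth of the class was 8554 and 3473 UMIs, so the libraries are not compared at like depth. In mural-like cells 7 of 92 and 13 of 263 held both, or 7.61% and 4.94%, against 7.56% and 5.67% if detected independently.

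Low Pdgfra counts in several other classes were lower in cells with fewer than 2 of 10 other OPC markers. Mural-like cells had 36.1 and 29.5 CPM, endothelial-like cells 22.2 and 12 CPM (a log2 ratio of 0.89, 0.29 to 1.49) and ependymal-like cells 11.3 and 30.8 CPM (a ratio of -1.45, -2.24 to -0.67, on 28 and 32 UMIs). When cells with 2 or more of 10 OPC markers were left out, these levels became 3.21 and 4.08, 2.90 and 2.78, and 1.68 and 5.42 CPM, and the ratios in endothelial- and ependymal-like cells became 0.06 (-1.74 to 1.78) and -1.69 (-4.46 to 0.87). The rule left 59 of 92 and 158 of 263 mural-like, 273 of 329 and 351 of 448 endothelial-like, and 288 of 382 and 117 of 153 ependymal-like cells. Some of these markers are not particular to OPC-like cells: Cspg4 was at 168 and 168 CPM in mural-like cells, against 207 and 170 CPM in OPC-like cells. The rule left 164 of 1212 and 127 of 1497 astrocyte-like cells and no COP-like or Enpp6 cluster cell, so it could not be used there. Fibroblast-like cells kept 113.5 and 110.8 CPM under the same rule. Oligodendrocyte-like cells went from 19.8 and 20.3 to 8.28 and 8.88 CPM, on 4 and 5 UMIs. Erythroid-like cells changed less, from 3.29 and 2.18 to 3.13 and 1.49 CPM, and so did a shallow unnamed cluster led by Tnni2, from 10.6 and 23.5 to 8.15 and 13.5 CPM (3 and 7 UMIs). In the microglia-like cluster led by Inka1, 29.2% and 23.8% of cells held a Pdgfra UMI, at 70.5 and 61.3 CPM, against 0.831% and 2.04% and 1.39 and 4.04 CPM in the main microglia-like cluster. The 10 OPC markers together were at 1055 and 998 CPM there, against 97.3 and 122 CPM in the main cluster and 4804 and 5286 CPM in OPC-like cells, and Pdgfra was at 2.67 and 3.48 CPM without the marker-bearing cells.

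**Figure D3:**
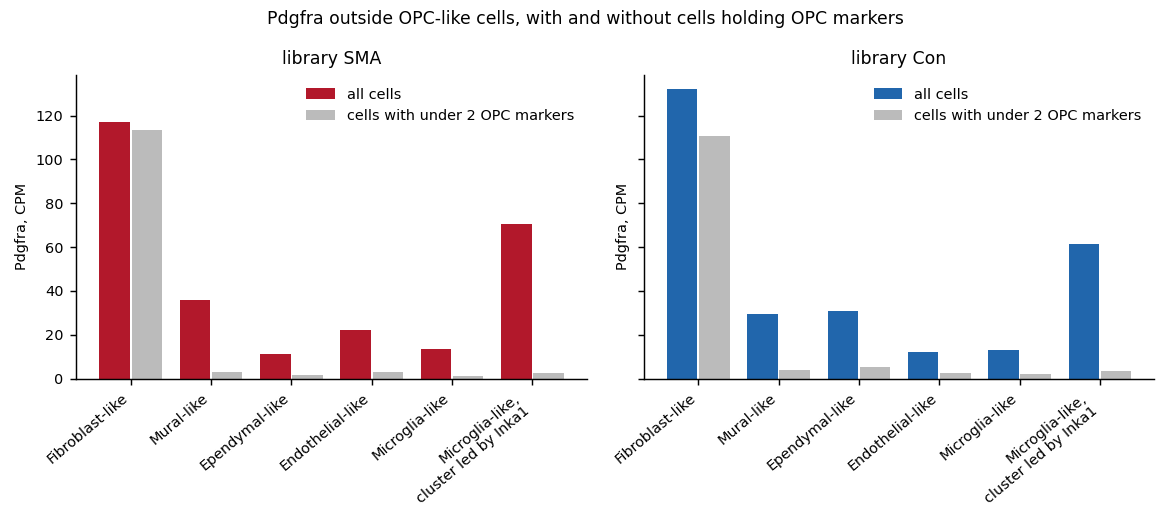
Pdgfra level in CPM outside OPC-like cells for each library, over all cells of a class or cluster (coloured) and over those with fewer than 2 of 10 OPC markers detected (grey). The grey bar stays above 100 CPM in fibroblast-like cells and is at 5.42 CPM or lower in each of the other groups drawn.

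Pdgfrb (chromosome 18, 61045150 to 61085061, plus strand), the receptor gene of pericytes, was at 399 and 344 CPM in mural-like cells, from 221 and 618 UMIs in 92 and 263 cells. Of these cells 87.0% and 82.9% held a UMI, or 37.0% and 32.2% after thinning, against 0.256% and 0.213% of erythroid-like cells. The log2 ratio was 0.21 (-0.02 to 0.44). Fibroblast-like cells came next, beyond the spread, at 52.6 and 53.6 CPM, a ratio of -0.02 (-0.63 to 0.54). Their cluster that both libraries held had 52.6 and 63.0 CPM, a ratio of -0.26 (-0.90 to 0.34), and the Con-only cluster had 43.5 CPM. Schwann-like cells had 12.5 and 10.9 CPM and astrocyte-like cells 7.09 and 6.21 CPM. OPC-like cells held 5 and 4 UMIs. Mural-like cells as a class carried both this receptor gene and the ligand gene Pdgfa: 35.9% and 37.3% of cells held a UMI of both. Independent detection of each gene would give 38.8% and 37.8%.

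Over all 6 members and 11 classes there were 66 pairs of a member and a class, of which 39 had at least 20 UMIs. Unnamed clusters, among them the Enpp6 cluster, were not part of these pairs. Of these 39 ratios, 33 had an interval that held 0, 4 lay above and 2 below. Over all genes with at least 20 UMIs in the same classes, 11.6% of intervals lay above 0 and 10.6% below, 22.3% in all, so intervals off 0 were no more frequent among the members than among all genes. None was 2-fold higher in the SMA library and 2 were 2-fold lower: Pdgfra in ependymal-like cells and Pdgfc in fibroblast-like cells (2 and 26 UMIs, -1.45, an interval that held 0). Of these 26 Con UMIs of Pdgfc, 19 came from the Con-only fibroblast-like cluster. In the fibroblast-like cluster that both libraries held, the Pdgfc ratio was under 2-fold, at -0.51 (-3.82 to 1.88). It rested there on 2 and 7 UMIs, under the minimum of 20 for a call. The ratio of Pdgfra in ependymal-like cells was under 2-fold at a mitochondrial limit of 20% (-0.81, -1.46 to -0.15) and at a clustering resolution of 2 (-0.72, -1.40 to -0.02). Of all genes with at least 20 UMIs, 4.3% were 2-fold apart in ependymal-like cells and 23.1% in fibroblast-like cells. In the other classes this share was 2.06% in OPC-like, 2.78% in astrocyte-like, 3.35% in microglia-like, 3.81% in COP-like, 5% in endothelial-like, 7.8% in Schwann-like, 8.11% in oligodendrocyte-like, 9.31% in mural-like and 13.8% in erythroid-like cells. Genes 2-fold lower in the SMA library made up 0.722% in OPC-like, 1.38% in astrocyte-like, 1.4% in microglia-like, 1.39% in COP-like, 2.51% in endothelial-like, 4.76% in Schwann-like, 2.99% in oligodendrocyte-like, 6.29% in mural-like, 12.6% in erythroid-like and 1.72% in ependymal-like cells. Genes 2-fold higher made up, in the same order, 1.34, 1.39, 1.95, 2.42, 2.49, 3.05, 5.12, 3.02, 1.2 and 2.58%. With at least 20 UMIs, no member lay past 2-fold in any of these classes except Pdgfra in ependymal-like cells.

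**Figure D4:**
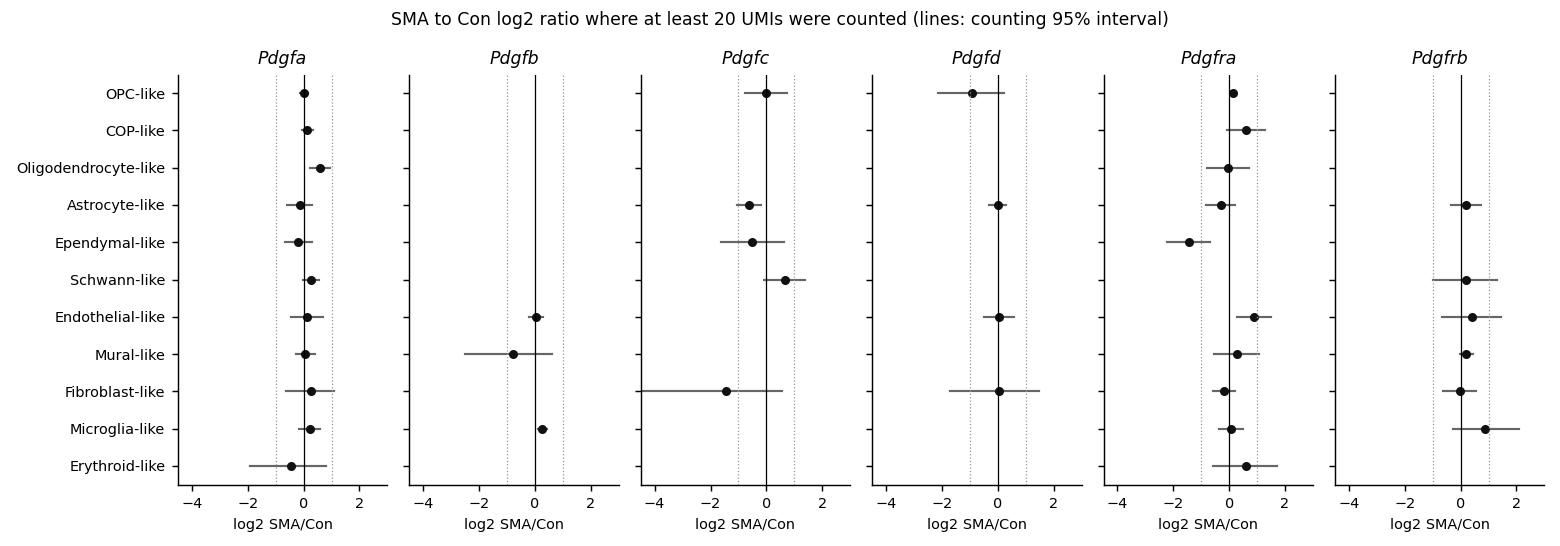
Log2 ratio of SMA to Con for each member and class with at least 20 UMIs in both libraries together (points), with exact conditional intervals (lines) and dotted lines at a 2-fold difference. The interval of Pdgfc in fibroblast-like cells runs past the left edge of the axis. In the class where each member is highest the points lie from 0.00 (Pdgfd) to 0.67 (Pdgfc, Schwann-like cells), and Pdgfra in ependymal-like cells lies at -1.45.

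Summed over all kept cells, Pdgfra, Pdgfrb and Pdgfb lay further apart between libraries than in the class of their highest level, and the classes made up unequal parts of the libraries. Pdgfra was at 132 and 91.4 CPM, a log2 ratio of 0.53 (0.48 to 0.59), and OPC-like cells were 30.8% and 20.7% of kept cells. Pdgfrb was at 8.28 and 15.2 CPM, a ratio of -0.88 (-1.06 to -0.70), and mural-like cells were 1.36% and 2.95% of kept cells. Had every class kept its Con level and only class sizes differed, the ratios would have been 0.41 for Pdgfra, -1.10 for Pdgfrb and 0.31 for Pdgfb, against the measured 0.53, -0.88 and 0.48. For Pdgfa, Pdgfc and Pdgfd they would have been -0.10, -0.04 and -0.06, against the measured -0.13, -0.29 and -0.12. These class shares depended on the barcodes left out. With the shared SMA barcodes kept, OPC-like cells were 18.6% and 19.3% of kept cells and mural-like cells 2.21% and 2.94%, while the ratios over all kept cells were 0.42 for Pdgfra, -0.78 for Pdgfrb, 0.47 for Pdgfb and 0.03 for Pdgfa. With 1 dissociated pool a group, these shares have no replicate error, and cell loss in dissociation cannot be told apart from tissue content.

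**Figure D5:**
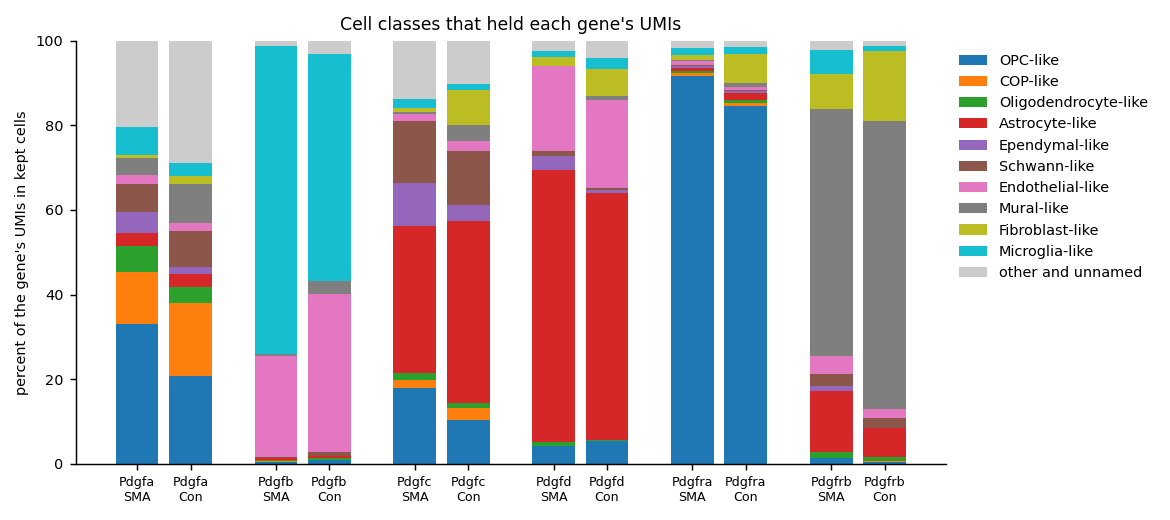
Percent of each member's UMIs in kept cells that came from each cell class, for the SMA and Con libraries; the light grey top of each bar holds the unnamed clusters and the classes not listed. OPC-like cells gave 91.8% and 84.5% of Pdgfra, mural-like cells 58.5% and 68.3% of Pdgfrb, and microglia-like cells 72.7% and 53.7% of Pdgfb.

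The genes around the PDGF receptors were read as 5 lists. In OPC-like cells 1 of 11 measured genes of ligand processing and binding was 2-fold higher in the SMA library (Thbs1 with 19 and 8 UMIs, at 1.10, -0.16 to 2.50, on the log2 scale), and Sparc, which binds PDGF-B, was alike at 463 and 464 CPM. None of 26 signal relay genes and none of 13 brakes was 2-fold apart there, where 2.06% of all genes were. Of 11 early target genes, 1 was 2-fold higher (Junb at 441 and 220 CPM, 1.01, 0.94 to 1.07), Fos was at 1388 and 754 CPM (0.88, 0.84 to 0.92) and Jun at 476 and 370 CPM (0.36, 0.31 to 0.42). The list median was 0.36, against 0.01 over all genes. These immediate early genes also answer to many other stimuli and to tissue dissociation, which was not tested. In COP-like cells 5 of 11 early targets were 2-fold higher (Fos, Fosb, Egr1, Junb and Etv5, named after their values were seen), where 2.42% of all genes were. Also 2-fold higher there were 2 of 13 brakes and 1 of 26 relay genes, and 1 relay gene was lower. The 1 measured gene of the related receptors was higher (1.41). In erythroid-like cells 6 of 10 early targets, 2 of 7 brakes and 1 of 3 processing genes were 2-fold lower, where 12.6% of all genes were.

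In mural-like cells, the brake Spry2 was at 126 and 47.4 CPM on 70 and 85 UMIs, which is 1.41 (0.94 to 1.89) as a log2 ratio, and Cblb, a ubiquitin ligase, had 0 and 20 UMIs, at least 2.06-fold lower at 3 counts. Those were the 2 of 13 brakes that were 2-fold apart, and no gene of the other 4 lists was. Of all genes in this class, 9.31% were 2-fold apart. Sparc was at 2778 and 2796 CPM, Fos at 2645 and 1735 CPM and Junb at 1961 and 1471 CPM. In endothelial-like cells, Ccnd1, the cyclin D1 gene, was at 506 and 229 CPM (1.14, 1.01 to 1.27). Cblb held 14 and 8 UMIs (1.37, 0.02 to 2.83) there, and no other list member was 2-fold apart, against 5% of all genes. Sparc was at 4774 and 4680 CPM, Junb at 1035 and 751 CPM and Fos at 928 and 540 CPM. In astrocyte-like cells 1 of the 5 lists' genes was 2-fold apart, lower in SMA, and in Schwann-like cells 2 were higher and 1 lower. Ligand processing genes alone were 2-fold apart in microglia-like cells (1 of 8, lower), oligodendrocyte-like cells (2 of 6, lower) and ependymal-like cells (1 of 8 higher and 2 lower). Of all genes, 2.78% were 2-fold apart in astrocyte-like, 7.8% in Schwann-like, 3.35% in microglia-like, 8.11% in oligodendrocyte-like and 4.3% in ependymal-like cells. The early-target median was -0.27 in microglia-like cells, against 0.05 over all genes, and 0.49 in endothelial-like, 0.36 in mural-like and 1.00 in COP-like cells.

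Fibroblast-like cells had the most list genes 2-fold apart, with the Con-only cluster included. This class also had the largest share of all genes 2-fold apart, at 23.1%. Of 12 ligand processing and binding genes, 6 were 2-fold lower in the SMA library: Pcsk5 (18.7 and 63.6 CPM) and Pcsk6 (0 and 57 UMIs, at least 3.99-fold), which are proprotein convertases, the protease gene Plau (1 and 44 UMIs), Sparc (6029 and 14453 CPM), Thbs1 (42.5 and 306 CPM) and Hspg2 (73.0 and 174 CPM). Of 11 early targets, 8 were 2-fold lower: Fos (698 and 1537 CPM), Fosb, Egr1, Jun, Junb, Myc, Ier2 and Ier3 (549 and 1274 CPM), with ratios from -2.47 to -1.14. Among all genes in this class 14.9% were 2-fold lower and 8.21% higher. Of the rest, Akt1, Stat3, Cblb, Ptprj and Spry1 were 2-fold lower, with ratios from -2.27 to -1.02. Kit (17 and 25 UMIs, 1.69, 0.71 to 2.64) and Slc9a3r1 (189 and 69.3 CPM, 1.44, 1.09 to 1.79) were 2-fold higher. In the cluster that both libraries held, 1 of 10 processing genes was 2-fold lower (Pdgfrl, not 1 of the 6 above, 331 and 844 CPM, -1.35). So were 5 of 10 early targets (Fosb, Egr1, Jun, Junb and Ier2) and 2 of 11 brakes (Cblb and Spry1). None of 24 relay genes was 2-fold apart. Of all genes in this cluster 8.21% were lower, 5.01% higher and 13.2% either. There Thbs1 turned to 42.5 and 2.08 CPM (25 and 3 UMIs), a ratio of 4.35 (2.64 to 6.72). Pcsk5 was at -0.11, Hspg2 at -0.79, Sparc at -0.87 and Fos at -0.98. Kit, Slc9a3r1, Akt1 and Stat3 were under 2-fold.

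Other genes were ranked by how their levels went with those of each member over the 11 classes, by Pearson r of log2(CPM + 1) among 12990 genes. The 11 classes share 2 libraries, and r is a description. Some genes named here were highest in another class than their member: Lrrc8b in Schwann-like, Itsn1 in astrocyte-like and Lcp1 in microglia-like cells. Pdgfra was most like Nt5e (0.91), Camk4, Vstm2a, Tenm2 and Gsx1. Pdgfrb was most like the smooth muscle genes Myl9 (0.97) and Tagln, and Pdlim1, Tbx3os1 and Mustn1. Pdgfa was most like Lrrc8b (0.96), Jam3, Eif5a2 and Lrrc20, and Pdgfb like Rasgrp3 (0.99), Hlx, Smagp, Klhl6 and Lcp1. Pdgfc was most like Rnd3 (0.93), Itsn1, Megf10, Kcnh2 and Garem1, and Pdgfd like Pgm5 (0.97), Cyp2d22, Msx1, Mcc and Socs2. Between members the highest r was 0.44, for Pdgfa and Pdgfc, and Pdgfra and Pdgfrb had 0.16.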

How the data were processed

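The deposited files hold raw UMI counts per gene and barcode, made by the authors from 10x 3′ version 3 libraries. Per the file headers the tool was Cell Ranger 4.0.0, which is not the version in the study's methods. The submitters' processing notes name mm10 and Seurat 3.2.2. Barcodes under 200 or over 4000 genes or with at least 10% mitochondrial UMIs were removed, then SMA barcodes shared with Con (6509), then a cluster of 1339 Con cells with over 30% ribosomal UMIs. No doublet caller was run beyond the gene limit. The 15704 kept cells were scaled to 10000, reduced to 2000 variable genes and 30 components, and clustered with the Louvain method (20 neighbours, resolution 1, scanpy 1.11.5). Of 31 clusters, 3 stayed unnamed. Members, pathway lists, Xist, Y-linked, ribosomal and mitochondrial genes were kept out of clustering.

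Counts were summed per class and library as CPM with exact Poisson intervals, and ratios had exact conditional binomial intervals. No test or p-value was possible with 1 library a group. The ratio step was tested on simulated data. A class difference was called beyond the spread where both libraries and intervals lay apart. A gene with under 20 UMIs was not called. The members and lists were chosen with earlier results of these data known. Named were the members, the 3 highest list genes and those 2-fold apart in 4 classes, and the 5 genes most like each member, of which 1 is not reported here. Of 32285 identifiers, 99.6% matched GENCODE M21.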

Additional observations from a re-analysis of the deposited data

Results flagged for a closer look

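Pdgfra was flagged because its SMA to Con log2 ratio took opposite directions in different classes, with intervals off 0 on both sides. It was 0.13 in OPC-like and 0.89 in endothelial-like cells and -1.45 in ependymal-like cells, the last at -0.81 and -0.72 under a mitochondrial limit of 20% and a resolution of 2. The difference between classes was not tested, since each is a ratio of 1 library to 1 library. The 10 OPC markers summed to 283 and 314 CPM in endothelial-like and 322 and 393 CPM in ependymal-like cells, and both Pdgfra levels were at 5.42 CPM or lower without the cells that held 2 or more of them. In an unnamed cluster led by Pdyn, whose best-matching marker list was the ependymal one, the ratio was 1.44 (0.56 to 2.42, 63 and 13 UMIs), and 0.71 (-2.93 to 6.42, 3 and 1 UMIs) without those cells.

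Barcodes outside the comparisons were flagged where a member stood above its level in the kept cells of the same library. Those over 4000 genes had 100.5 (SMA) and 102.7 (Con) CPM of Pdgfa, against 51.1 and 55.8 CPM in kept cells, and 21.6 CPM of Pdgfb in the Con library against 15.3, while in the SMA library Pdgfb was at 14.6 CPM against 21.3. Barcodes with a mitochondrial share of 10% or more had 18.2 and 34.0 CPM of Pdgfrb, against 8.28 and 15.2. The shared SMA barcodes had 80.3 CPM of Pdgfa and 11.2 CPM of Pdgfrb, against 51.1 and 8.28 in kept SMA cells.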

How the results depend on the processing

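No paired analysis was possible because each group is 1 library. The 6 ratios in the classes of highest level were recomputed under 8 alternatives each, and all 48 values lay within the counting interval of the main value, 40 of them with its sign. Of 85 values for 10 other ratios, 80 lay within it and 75 kept the sign. Pdgfa in oligodendrocyte-like cells turned from 0.57 to -0.06 (-0.0597) with shared barcodes kept, and was 0.04 under a mitochondrial limit of 20%. Over all kept cells Pdgfa turned from -0.13 to 0.03 (0.0280) with shared barcodes kept. The cause was not tested. The class of highest Pdgfa became COP-like at resolution 0.5 (196 CPM), at resolution 2 (178 CPM) and under a mitochondrial limit of 20% (187 CPM), and Schwann-like with each cell weighted equally (166 CPM). That of Pdgfd became endothelial-like under the last 2 of these settings. Without thinning, shares of cells with a UMI were 45.1% for Pdgfa, 46.4% for Pdgfb, 21.6% for Pdgfc, 12.5% for Pdgfd, 82.7% for Pdgfra and 84.9% for Pdgfrb, against 15.3, 9.82, 4.79, 2.48, 34.8 and 34.6% at 1000 UMIs (means of both libraries). The share of all genes 2-fold apart was lower with a higher count minimum. With at least 100 UMIs it was 0.408% in OPC-like, 2.81% in mural-like, 1.64% in endothelial-like, 2.39% in Schwann-like, 0.84% in astrocyte-like and 0.497% in ependymal-like cells, and 17.7% in fibroblast-like cells. With at least 1 UMI it was 18.7, 33.6, 25.2, 32.5, 20.8 and 27.2% in the same order, and 44.7% in fibroblast-like cells. Leaving out marker-bearing cells, reading clusters apart and the alternatives over all kept cells were chosen after seeing the data.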

Other observations

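The 3 classes too small to compare held few member counts. Monocyte-like cells (21 and 284 cells) had 13 and 8 UMIs of Pdgfra, macrophage-like cells (38 and 66) had 7 and 6 UMIs of Pdgfb, and neuron-like cells (45 and 26) had 18 and 14 UMIs of Pdgfa, found in 31.1% and 46.2% of cells.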
